A study of Mus musculus with 29 samples.

Results

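Spleens of MLL-ENL-ERtm mice at the early stage of disease were compared with wild-type spleens over 8 of the 29 expression arrays of the series. The members were chosen by their labels and comprised 3 early-stage arrays and 5 wild-type arrays, each labelled as a separate biological replicate. MLL-ENL-ERtm joins the leukaemia fusion MLL-ENL to a mutated oestrogen-binding domain of the oestrogen receptor, so that the fusion acts only while tamoxifen is given. All mice, wild type included, received tamoxifen in the chow at 300 mg per kg. The early-stage mice had received it for 7 months. The wild-type spleens came from mice treated for 24, 8, 9, 11 and 11 months, in the order of their replicate numbers. Beside these, the progression-stage spleens (3 arrays, 10, 10 and 9 months), the terminal-stage spleens (3 arrays, 21, 23 and 19 months), the proliferation-state bone marrow of MLL-ENL-ERtm mice (4 arrays, 7 months each) and wild-type bone marrow (4 arrays, 8, 7, 7 and 7 months) were used to place the early spleen. The study describes the early stage as one with proliferation and DNA damage signalling switched on. RNA came from primary cells of the whole organ, and the promoter that drives the fusion, the strain and the sex of the mice are not given in the sources used here.

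MLL is a histone methyltransferase that keeps Hox genes active in blood stem cells, and ENL belongs to complexes that release paused RNA polymerase. Their fusion holds Hoxa9 and Meis1 on in myeloid progenitors and slows maturation. Granulocyte precursors make the proteases of the primary granules first and the proteins of the later granules afterwards, and the healthy mouse spleen combines lymphoid white pulp with a red pulp in which macrophages clear old red cells and blood cells can form.

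The promoters of 5 primary granule genes are shown because these genes were among the largest rises in the early spleen. Elane encodes neutrophil elastase, Prtn3 proteinase 3, Mpo myeloperoxidase, Ctsg cathepsin G and Ms4a3 a membrane protein of granulocyte and monocyte precursors. Each sequence is the 250 bases upstream of the annotated gene start, 5′ to 3′ on the strand of the gene, from RefSeq on GRCm38.p6. The window of Elane lies at chr10:79886062-79886311 (+ strand), of Prtn3 at chr10:79879417-79879666 (+ strand), of Mpo at chr11:87793534-87793783 (+ strand), of Ctsg at chr14:56102575-56102824 (minus strand) and of Ms4a3 at chr19:11640852-11641101 (minus strand). Capitals mark 2 motifs searched on both strands. These were GAGGAA, the core that the myeloid factor PU.1 binds, and TTNNGNAA, a C/EBP half-site pair with N for any base.
Elane: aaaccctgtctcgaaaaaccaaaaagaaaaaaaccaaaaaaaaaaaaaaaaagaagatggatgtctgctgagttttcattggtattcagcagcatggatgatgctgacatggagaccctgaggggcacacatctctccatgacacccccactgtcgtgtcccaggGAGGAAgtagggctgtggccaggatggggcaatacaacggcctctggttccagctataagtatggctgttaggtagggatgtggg
Prtn3: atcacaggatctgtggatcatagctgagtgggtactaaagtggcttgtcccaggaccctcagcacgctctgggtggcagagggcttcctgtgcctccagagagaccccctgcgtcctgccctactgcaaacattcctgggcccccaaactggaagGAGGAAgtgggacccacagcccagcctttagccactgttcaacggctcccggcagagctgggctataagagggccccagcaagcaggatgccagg
Mpo: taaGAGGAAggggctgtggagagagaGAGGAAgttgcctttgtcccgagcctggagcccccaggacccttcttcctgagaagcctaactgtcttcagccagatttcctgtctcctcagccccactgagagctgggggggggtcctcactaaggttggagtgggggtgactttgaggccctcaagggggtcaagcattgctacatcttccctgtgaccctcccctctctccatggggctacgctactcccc
Ctsg: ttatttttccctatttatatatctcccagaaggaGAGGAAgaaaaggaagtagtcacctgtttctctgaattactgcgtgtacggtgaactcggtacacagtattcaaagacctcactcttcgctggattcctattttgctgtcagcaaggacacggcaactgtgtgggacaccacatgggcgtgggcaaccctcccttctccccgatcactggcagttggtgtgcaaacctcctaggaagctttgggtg
Ms4a3: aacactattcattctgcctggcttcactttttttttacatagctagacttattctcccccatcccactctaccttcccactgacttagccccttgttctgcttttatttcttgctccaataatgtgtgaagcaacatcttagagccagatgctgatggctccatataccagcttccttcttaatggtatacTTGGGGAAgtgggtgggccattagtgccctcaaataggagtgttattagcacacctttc
GAGGAA stood 85 bases upstream of the Elane start, 95 bases upstream of Prtn3, 216 bases upstream of Ctsg, and at 247 and 224 bases upstream of Mpo. Ms4a3 had no GAGGAA in this window and held TTNNGNAA 59 bases upstream. Of all 32851 mouse promoters of this length, 23.3% held GAGGAA and 36.8% held TTNNGNAA, so single matches of these short motifs are common. A match is a description of letters only. Elane and Prtn3 are neighbours on chromosome 10, in the annotated order Prtn3 then Elane.

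Array values were the deposited log2 intensities, and each gene was read from its brightest probe set over the spleen arrays. Wild-type spleen arrays carried the B cell genes Ms4a1 (12.79, 12.86, 12.80, 12.86 and 13.03) and Cd79a, the T cell gene Cd3e and the red pulp macrophage genes Spic, Hmox1 and Vcam1. These genes were not compared with marrow arrays here, so they do not tell spleen from marrow. Wild type 3 also carried pancreas RNA. The mean of 24 acinar genes, relative to its wild-type mean, was 0.35, -1.05 and -1.28 in early spleens and -1.09, -1.35, 3.57, -1.19 and 0.06 in wild-type spleens. None of the 24 passed the limma test and 1 had an unadjusted p under 0.05 (Gp2, a zymogen granule membrane gene, -2.15 ± 0.72, adjusted p = 0.058), yet early 1 and wild type 5 also stood above the rest. The fits were therefore repeated without wild type 3 and early 1, and without these and wild type 5 (the 3 arrays with most pancreas RNA). Early 3 stood apart from early 1 and 2: the endothelial list mean was 0.23, 0.26 and -1.34 in early spleens and 0.33, -0.20, -0.56, 0.20 and 0.23 in wild-type spleens, and the immediate early list mean was -0.46, -0.47 and 0.75 in early spleens and 0.13, -0.12, -0.20, -0.20 and 0.39 in wild-type spleens. Early 1 and 2 and wild type 1 had an interquartile range of values under 4.2, narrower than the other 5 arrays. Early 1 and wild type 1 and 5 had high Xist, the other 5 arrays low Xist and high Eif2s3y, so both groups held both patterns. Over all 22690 probe sets, Pearson correlations were 0.977 to 0.992 between early arrays, 0.958 to 0.984 between early and wild-type arrays, and 0.981 to 0.996 between wild-type arrays.

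In the early spleen 1971 of 12394 genes differed from wild type at a Benjamini-Hochberg adjusted p under 0.05 (limma, 1 fit over 14 spleen arrays), which is 15.9% of all genes. Of these, 911 (7.35%) were higher and 1060 (8.55%) lower, a split that turned round with array weights, to 3127 higher and 2572 lower. At the threshold as set, 675 differed by at least 1 on the log2 scale, 291 of them higher and 384 lower. Granule protease genes and Hoxa9 led the rises, and genes of mast cells, T cells, B cells and macrophages led the falls. The median difference over all genes was 0.03 and the median standard error 0.15. Without arrays of the groups, 1 at a time, the count ranged from 1343 to 2142. It was 1011 without wild type 3 and early 1, and 643 without these and wild type 5. Early mice had all been treated for 7 months, fewer than every wild-type mouse. A covariate for months takes its slope from the other spleen groups only, so the early stage and the shorter treatment cannot be told apart. With months of tamoxifen as a covariate 2050 genes passed, and 1593 of the 1971 kept their call. Among the genes named, 22 lost it. These were Bhlhe40, Cd79a, Col5a1, Cr2, Cxcl13, Ezh2, Fcgr1, Fosl1, Hdc, Hpgds, Il4, Irf4, Kit, Lpl, Mcm10, Pecam1, Procr, Rps19, Scarb1, Scd1, Sparc and Tnfrsf17. Differences below are early minus wild type on the log2 scale ± standard error, and a fold is given only where the lower group's mean lay more than 1 log2 unit above the lower quartile of the arrays. In whole spleens, fewer cells of a type and less RNA per cell cannot be told apart, and the same holds for more cells and more RNA per cell.

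**Figure D1:**
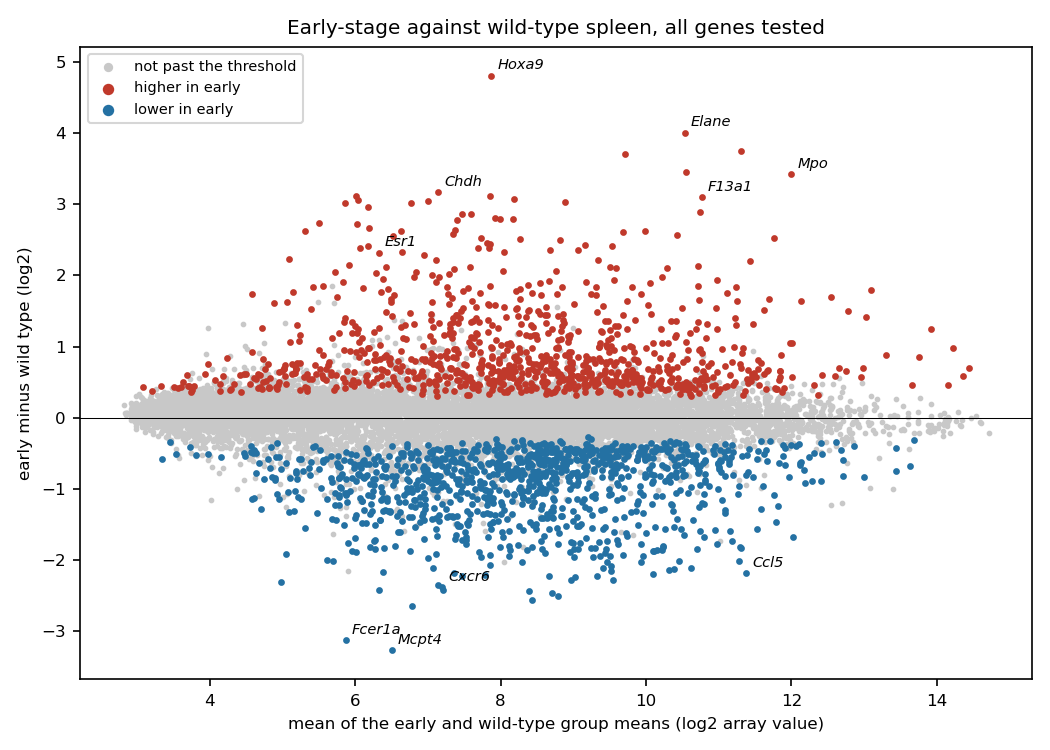
Difference between early-stage and wild-type spleen (log2, y axis) against the mean of both group means (log2 array value, x axis) for 12394 genes, with 911 genes higher in early spleen in red, 1060 lower in blue and the rest in grey. Hoxa9 and Elane have the largest rises, at 4.81 and 4.00, and Mcpt4 the largest fall, at -3.27.

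The fusion was checked first. Esr1, the oestrogen receptor gene whose binding domain is part of the fusion, read 7.71, 7.66 and 7.08 in early spleens and 4.70, 5.14, 5.09, 5.48 and 5.42 in wild-type spleens, and rose by 2.32 ± 0.20, adjusted p = 2.9e-05. All early arrays lay above all wild-type arrays. Whether this probe set reads the fusion or the mouse's own receptor was not tested. The mouse genes for the parts of the fusion did not pass: Kmt2a, which encodes MLL, read 9.31, 9.35 and 8.45 against 9.71, 9.40, 9.23, 9.64 and 9.59 (-0.48 ± 0.21, adjusted p = 0.15), and Mllt1, which encodes ENL, differed by 0.22 ± 0.13, adjusted p = 0.3. The second probe sets of Kmt2a and Mllt1 differed by -0.74 ± 0.16 and 0.43 ± 0.15. Kmt2a was lower with the mean of its probe sets (-0.61, adjusted p = 0.028) and with a covariate for RNA integrity, the 3' minus 5' Gapdh signal (-0.65, adjusted p = 0.017). In the arrays with the wider interquartile range, where early 3 was the only early array, Kmt2a differed by -1.02. In the narrow arrays alone it differed by -0.38. Of 14 measured genes of the fusion and its partner complexes, 2 rose and 1 fell, beside 7.35% of all genes called higher and 8.55% lower. Wdr5, a core subunit of MLL methyltransferase complexes, rose by 0.58 ± 0.10, adjusted p = 0.0017, and Aff4, a scaffold of the super elongation complex, fell to 7.99, 8.10 and 8.05 in early spleens, against 8.58, 8.97, 8.88, 9.01 and 9.23 in wild-type spleens (-0.89 ± 0.16, adjusted p = 0.0019). A second, dimmer probe set of Aff4 differed by only -0.18 ± 0.14, and that of Wdr5 by 0.41 ± 0.12. Aff4 and Wdr5 did not pass without wild type 3, wild type 5 and early 1 (adjusted p up to 0.094 without all 3 arrays, Wdr5).

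Of 9 measured Hoxa genes, homeobox factors of blood stem and progenitor cells, 5 rose. Hoxa9, which sustains self-renewal of progenitors, read 10.46, 9.74 and 10.63 in early spleens and 5.47, 5.77, 5.35, 4.73 and 6.02 in wild-type spleens. No early array came within 3 log2 units of a wild-type array, and the difference of 4.81 ± 0.41 (adjusted p = 2.9e-05) had the largest size of all genes named. A second Hoxa9 probe set differed by 1.95 ± 0.32. Hoxa10 read 6.61, 6.22 and 7.01 against 3.995, 4.10, 3.84, 3.99 and 4.06 (2.62 ± 0.41, adjusted p = 0.00077), with wild-type values near the background of the arrays. Hoxa5 rose by 1.97 ± 0.30 (adjusted p = 0.00062, 3.92-fold) and Hoxa7 by 1.28 ± 0.23 (adjusted p = 0.0017, 2.42-fold). Hoxa3, named after its values were seen, rose by 0.83 ± 0.18 (adjusted p = 0.0053). The list median was 0.83, and 5 rose whichever of the 8 arrays was left out, and 4 without the 2 or the 3 arrays with most pancreas RNA. The remaining 4, Hoxa2, Hoxa4, Hoxa11 and Hoxa13, had levels under 5 on every early and wild-type array. Hoxa3 did not pass without wild type 3 and early 1 (adjusted p = 0.091 without wild type 5 as well).

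Of 15 other genes known as targets of MLL fusions, 5 rose and 3 fell (list median 0.36). The shares over all genes were 7.35% higher and 8.55% lower. Without the 2 arrays with most pancreas RNA 3 rose and 4 fell, and without the 3 arrays 2 rose and 2 fell. Meis1, the cofactor that binds DNA with Hoxa9, read 6.51, 6.45 and 6.60 in early spleens and 5.57, 4.87, 5.23, 5.01 and 5.21 in wild-type spleens (1.34 ± 0.16, adjusted p = 0.00012), with no overlap. Pbx3, another partner of Hoxa9, rose by 0.95 ± 0.21 (adjusted p = 0.0059, 1.93-fold). Myb, a factor that keeps progenitors immature, read 11.998, 11.38 and 11.84 against 10.09, 10.23, 9.87, 10.45 and 10.35 and was 2.91-fold higher. Cdk6, a cell cycle kinase of early progenitors, rose by 1.34 ± 0.28, whereas Bcl2, which blocks apoptosis, fell by 0.80 ± 0.14. Gfi1, a repressor that directs granulocyte fate, was 4.34-fold higher (2.12 ± 0.50, adjusted p = 0.01). Mef2c, a MADS box factor of B and progenitor cells, and Tgm2, a transglutaminase of macrophages, were 1.83-fold and 2.33-fold lower. Among 15 stem and progenitor genes, 5 rose and 2 fell, beside 7.35% of all genes called higher and 8.55% lower. Cd34, a surface sialomucin of stem and progenitor cells, read 8.65, 7.87 and 7.76 in early spleens and 6.37, 5.86, 5.03, 5.85 and 5.89 in wild-type spleens and was 4.9-fold higher (2.29 ± 0.27, adjusted p = 0.00013). Erg, an ETS factor of stem cells, rose by 1.29 ± 0.22 and Kit, the stem cell factor receptor, by 0.88 ± 0.26. The falls were Cd27, a receptor that lymphocytes also carry (2.27-fold lower), and Procr, a receptor of stem and endothelial cells (-0.89 ± 0.25). Passing calls were lost without early 3 for Gfi1 and Procr and without any 1 of several arrays of both groups for Kit (adjusted p up to 0.13, Kit). Gfi1, Kit and Pbx3 did not pass without wild type 3 and early 1, nor did Cdk6, Mef2c and Procr without wild type 5 as well (adjusted p up to 0.15 without all 3 arrays, Gfi1).

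Primary granule genes, made at the promyelocyte stage, showed the largest shift of any myeloid list. Of 13 measured members 9 rose, 4 did not pass, and the list median was 2.12, against 0.03 over all genes. Elane read 12.72, 11.77 and 13.13 in early spleens and 9.33, 9.20, 8.09, 7.94 and 8.10 in wild-type spleens. The lowest early array exceeded the highest wild-type array by more than 2 log2 units, and the gene was 16.1-fold higher (4.005 ± 0.40, adjusted p = 5.7e-05). Mpo read 13.80, 13.25 and 14.07 against 11.12, 11.05, 9.66, 9.87 and 9.73 (10.7-fold higher), and Prtn3 read 13.16, 12.72 and 13.68 against 10.54, 9.93, 8.72, 9.06 and 8.94 (13.4-fold higher). Ms4a3 rose 13-fold and Ctsg 10.9-fold. Early 2 had the lowest and early 3 the highest value of each of these 5 genes, and wild type 1 and 2 were above wild type 3, 4 and 5 in each. Gstm1, a glutathione transferase, was 5.1-fold higher (2.35 ± 0.26, adjusted p = 0.0001). With 1 of the 8 arrays left out, 8 to 11 members rose, and without the 2 or the 3 arrays with most pancreas RNA, 7. In the narrow arrays alone (early 1 and 2, wild type 1) Elane differed by 2.91 and Mpo by 2.40. In the other 5 arrays, where early 3 was the only early array, these genes differed by 4.79 and 3.99.

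Genes of the later granules and of the neutrophil surface rose as well, in 19 of 23 measured members, with a median of 1.499. Ltf, which encodes lactoferrin, read 13.88, 13.88 and 14.23 in early spleens and 12.59, 12.54, 11.57, 12.43 and 11.91 in wild-type spleens (1.79 ± 0.24, adjusted p = 0.0003). Lcn2, which binds bacterial iron carriers, read 13.66, 13.48 and 14.07 against 12.53, 12.61, 12.01, 12.21 and 12.23 and was 2.68-fold higher. Hp, which encodes haptoglobin, was 5.73-fold higher (2.52 ± 0.28, adjusted p = 9.9e-05), and Padi4, which citrullinates histones in neutrophils, 6.95-fold (2.80 ± 0.34, adjusted p = 0.00015). Smaller rises were seen for some further genes of granulocytes and monocytes: S100a8 and S100a9, the subunits of calprotectin, rose by 0.59 ± 0.13 and 0.70 ± 0.11, Ngp by 0.98 ± 0.15, Camp by 1.25 ± 0.17 and Lyz2, lysozyme, by 0.85 ± 0.11. All 3 early arrays lay above all 5 wild-type arrays for 18 of the 23 members, against 12.3% of all genes. S100a8 did not pass without wild type 3, wild type 5 and early 1 (adjusted p = 0.069).

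**Figure D2:**
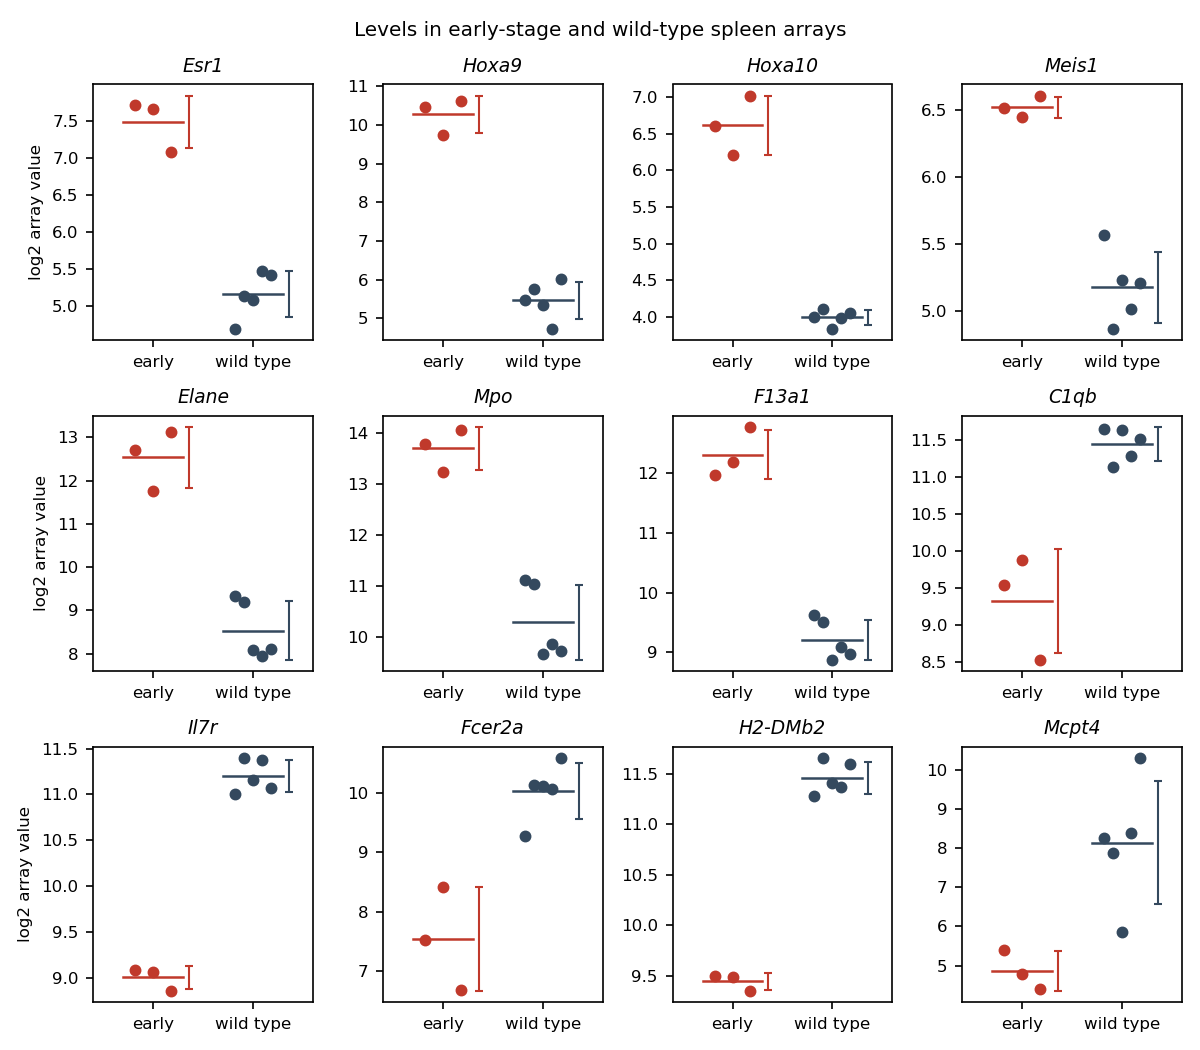
Log2 array values of 12 genes in early-stage spleen (left, red, 3 arrays) and wild-type spleen (right, dark blue, 5 arrays), with the group mean as a line and the SD as a bar beside it. The early arrays lie above the wild-type arrays for Esr1, Hoxa9, Hoxa10, Meis1, Elane, Mpo and F13a1 and below them for C1qb, Il7r, Fcer2a, H2-DMb2 and Mcpt4.

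Monocyte genes split. Of 15 measured, 6 rose and 2 fell, beside 7.35% of all genes called higher and 8.55% lower. F13a1, the catalytic subunit of coagulation factor XIII made by monocytes, read 11.98, 12.19 and 12.78 in early spleens and 9.63, 9.51, 8.88, 9.08 and 8.98 in wild-type spleens and was 8.57-fold higher (3.10 ± 0.21, adjusted p = 1.3e-05). Fn1, fibronectin, was 6.17-fold higher (2.63 ± 0.34, adjusted p = 0.00024), and Ms4a6c, a membrane protein of monocytes, 2.55-fold (1.35 ± 0.22, adjusted p = 0.00094). Ccr2, which brings monocytes out of the marrow, read 9.47, 10.26 and 10.86 against 8.40, 8.53, 8.55, 8.83 and 8.79 (2.98-fold higher), and Klf4, a factor of monocyte maturation, was 2.52-fold higher. Genes that macrophages share fell: Csf1r, the receptor for their growth factor, was 1.89-fold lower and Fcgr1, the high-affinity IgG receptor, 2.57-fold lower. Without wild type 3 and early 1, 6 members rose and both falls did not pass. The call was lost without early 1 or 3 for Fcgr1 (adjusted p up to 0.1). Csf1r and Fcgr1 did not pass without wild type 3 and early 1 (adjusted p up to 0.22 without all 3 arrays, Fcgr1).

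Most macrophage genes fell. Of 18 measured red pulp and tissue macrophage genes 12 fell, 6 did not pass, and the median was -1.79. C1qb, a chain of complement C1q made by macrophages, read 9.55, 9.89 and 8.54 in early spleens and 11.66, 11.14, 11.64, 11.28 and 11.52 in wild-type spleens and was 4.36-fold lower (-2.13 ± 0.30, adjusted p = 0.00036). C1qc, another C1q chain, was 3.65-fold lower. Adgre1, the adhesion receptor used as a macrophage marker, read 8.60, 8.64 and 7.81 against 9.53, 9.62, 9.95, 9.74 and 9.88 (2.64-fold lower), and Axl, a receptor for engulfing dying cells, was 3.58-fold lower. Spic, the factor that makes red pulp macrophages, read 8.65, 8.66 and 6.40 against 10.83, 9.31, 10.60, 9.77 and 10.16 (-2.23 ± 0.46, adjusted p = 0.0043), and Hmox1, which breaks down haem in these cells, was 3.21-fold lower. Early 3 had the lowest value of each of these genes, by more than 0.7 log2 units. Without early 3, 11 genes still fell. Without wild type 3 and early 1 11 fell, and without wild type 5 as well, 7.

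Some antigen presentation genes fell. Of 12 MHC class II presentation genes 5 fell and 7 did not pass, with a median of -1.10. The count was 10 in a fit over the 8 arrays of both groups alone, 4 without wild type 3 and early 1 and 3 without these and wild type 5. H2-DMb2, a chain of the H2-M complex that loads peptides, read 9.50, 9.49 and 9.35 in early spleens and 11.28, 11.65, 11.41, 11.37 and 11.60 in wild-type spleens and was 4.04-fold lower (-2.02 ± 0.31, adjusted p = 0.00062). The early arrays lay within 0.2 of each other and well below wild type. H2-DMa, the other chain, was 2.31-fold lower, H2-Oa, which tunes that complex, 3.09-fold lower, and Ctss, the protease that trims the invariant chain, 1.77-fold lower. Rfx5, a factor that drives class II promoters, was 1.7-fold lower. Of 14 dendritic cell genes 5 fell (median -0.77), beside 8.55% of all genes called lower. Cd83, a marker of mature dendritic cells that B cells also carry, read 8.97, 8.84 and 7.41 against 11.13, 10.80, 10.47, 10.56 and 10.48 and was 4.87-fold lower. Cd8a, carried by a dendritic cell subset and by T cells, was 2.77-fold lower. Tcf4, the E protein of plasmacytoid dendritic cells, was 1.63-fold lower. With 1 array left out, 3 to 4 of the dendritic cell genes fell, 9 in a fit over both groups alone, and 2 without the 3 arrays with most pancreas RNA. Some calls here were lost without early 3 for Rfx5 and without any 1 of several arrays of both groups for Tcf4 (adjusted p up to 0.13, Tcf4). Ctss and Tcf4 did not pass without wild type 3 and early 1, nor did Cd8a and Rfx5 without wild type 5 as well (adjusted p up to 0.22 without all 3 arrays, Tcf4).

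B cell genes fell in 21 of 32 measured members, and 1 rose (median -1.59), beside 8.55% of all genes called lower and 7.35% higher. Fcer2a, the low-affinity IgE receptor CD23 of mature B cells, read 7.52, 8.42 and 6.66 in early spleens and 9.27, 10.13, 10.12, 10.08 and 10.60 in wild-type spleens and was 5.67-fold lower (-2.50 ± 0.37, adjusted p = 0.00053). Tnfrsf13c, the receptor for the survival factor BAFF, was 4.67-fold lower, Vpreb3, an assembly factor of immature B cells, 3.03-fold lower and Swap70, a signalling adaptor of activated B cells, 3.08-fold lower. Ms4a1, which encodes CD20, read 11.39, 11.68 and 10.48 in early spleens (-1.68 ± 0.49, adjusted p = 0.031). The rise was Rag2, a recombinase gene of B and T cell precursors, at 3.96, 3.89 and 3.61 against 3.52, 3.40, 3.24, 3.48 and 3.29, near background in both groups (0.43 ± 0.12, adjusted p = 0.028). Early 3 had the lowest list mean (-1.70, against -0.96 and -0.85 in early 1 and 2 and -0.12 to 0.13 in wild type). The count was 13 without early 3, 14 without early 1, 14 without wild type 5, 12 without wild type 3 and early 1 and 8 without these and wild type 5. Of 15 plasma cell genes 3 fell, beside 8.55% of all genes called lower, and 6 in a fit over both groups alone. Tnfrsf13b, the receptor TACI, read 9.92, 9.86 and 9.86 against 10.89, 10.78, 10.75, 10.72 and 10.76 (-0.90 ± 0.14, adjusted p = 0.0006). Tnfrsf17, the receptor BCMA, and Irf4, a factor of plasma and dendritic cells, were the others, and only Tnfrsf13b passed without early 1. A second, dimmer Irf4 probe set differed by -0.19 ± 0.24, and Irf4 did not pass with the mean of its probe sets. Jchain, which links secreted antibodies, did not pass (-0.57 ± 0.23, adjusted p = 0.12). In leave-one-out fits, calls were lost without any 1 of several arrays of both groups for Irf4, Ms4a1, Rag2 and Tnfrsf17 (adjusted p up to 0.18, Tnfrsf17). Irf4, Ms4a1, Rag2 and Tnfrsf17 did not pass without wild type 3 and early 1 (adjusted p up to 0.44 without all 3 arrays, Rag2).

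T cell genes fell in 22 of 26 measured members, with a median of -1.38. Cd3g, a chain of the T cell receptor complex, read 7.53, 7.78 and 7.11 in early spleens and 9.50, 10.19, 10.11, 9.92 and 9.94 in wild-type spleens and was 5.5-fold lower (-2.46 ± 0.34, adjusted p = 0.00032). Il7r, the receptor for the survival cytokine interleukin 7, read 9.09, 9.07 and 8.86 against 11.000, 11.40, 11.16, 11.37 and 11.07 (4.58-fold lower). Cd8b1, a chain of the CD8 coreceptor, was 3.52-fold lower and Cd3d, another chain of the receptor complex, 2.91-fold lower. The early arrays lay below every wild-type array for 23 of the 26, against 12.6% of all genes. With 1 array left out 19 to 22 fell, and without the 3 arrays with most pancreas RNA 16.

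Of 23 natural killer and cytotoxic granule genes 14 fell and 1 rose (median -1.17), beside 8.55% of all genes called lower and 7.35% higher. The falls numbered 11 to 13 with 1 array left out, 12 without wild type 3 and early 1 and 9 without these and wild type 5. Ccl5, a chemokine stored by cytotoxic cells, read 10.82, 10.56 and 9.49 in early spleens and 12.51, 12.46, 12.46, 12.34 and 12.60 in wild-type spleens and was 4.54-fold lower (-2.18 ± 0.31, adjusted p = 0.00037). Klrd1, the CD94 receptor, was 3.37-fold lower, and Fasl, the death ligand, fell by 1.88 ± 0.27 to 4.96, 5.50 and 4.59 in early spleens, against 6.65, 7.01, 6.52, 7.10 and 7.18 in wild-type spleens. Klrb1f, a C-type lectin receptor, was the rise: 7.49, 6.89 and 8.07 in early spleens and 5.38, 5.73, 5.25, 5.27 and 5.21 in wild-type spleens (2.12 ± 0.34, adjusted p = 0.00092).

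Homing genes place lymphocytes in the white pulp. Of 14 measured, 4 fell and 1 rose, beside 8.55% of all genes called lower and 7.35% higher. The falls numbered 3 without early 3, 6 without early 1, 3 without wild type 3 and early 1 and 2 without these and wild type 5. Cxcr5, which guides B cells into follicles, read 8.20, 8.56 and 6.70 in early spleens and 10.21, 10.18, 9.87, 10.05 and 10.21 in wild-type spleens and was 4.88-fold lower. Its ligand Cxcl13 was 3.2-fold lower, Ccr7, which guides T and dendritic cells, 3.9-fold lower and Ccr6, a receptor of B and dendritic cells, 3.31-fold lower. Cxcr4, which retains cells in marrow, was 1.59-fold higher (0.67 ± 0.21, adjusted p = 0.047). Calls were lost without early 3 for Cxcl13 and without any 1 of several arrays of both groups for Cxcr4 (adjusted p up to 0.14, Cxcr4). Cxcl13 and Cxcr4 did not pass without wild type 3 and early 1, nor did Cxcr5 without wild type 5 as well (adjusted p up to 0.38 without all 3 arrays, Cxcr4).

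Of 15 mast cell, basophil and eosinophil genes 6 fell and 1 rose, beside 8.55% of all genes called lower and 7.35% higher. Mcpt4, a mast cell chymase, read 5.41, 4.80 and 4.40 in early spleens and 8.26, 7.87, 5.87, 8.39 and 10.29 in wild-type spleens (-3.27 ± 0.69, adjusted p = 0.0051). The wild-type arrays spanned more than 4 log2 units, with wild type 3 lowest and wild type 5 highest, and the early arrays lay below them all. Fcer1a, the ligand-binding chain of the high-affinity IgE receptor, read 4.83, 3.75 and 4.34 against 7.35, 7.17, 5.92, 7.51 and 9.22 (-3.13 ± 0.67, adjusted p = 0.0058). Cma1, another chymase, fell by 2.42 ± 0.47 and Ccr3, the eotaxin receptor of eosinophils, by 1.83 ± 0.23. Cpa3, a mast cell carboxypeptidase, was 5.36-fold lower, though early 1 (7.01) overlapped wild type 3 (6.71). Il4, the cytokine interleukin 4, fell by 0.54 ± 0.17. Hdc, which makes histamine in mast cells, basophils and neutrophils, was the rise, at 9.60, 9.87 and 10.89 in early spleens and 8.73, 8.90, 8.44, 9.17 and 9.23 in wild-type spleens (2.34-fold higher). With 1 array left out 4 to 6 members fell. Passing calls were lost without early 2 or 3 for Cpa3 and without any 1 of several arrays of both groups for Hdc and Il4 (adjusted p up to 0.19, Il4). Hdc did not pass without wild type 3 and early 1, nor did Il4 without wild type 5 as well (adjusted p up to 0.092 without all 3 arrays, Hdc).

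Interferon-induced genes fell in 12 of 29 (median -0.58). Gbp2, a guanylate-binding GTPase, read 7.60, 7.94 and 7.44 in early spleens and 9.30, 9.60, 9.81, 9.53 and 9.55 in wild-type spleens and was 3.73-fold lower (-1.90 ± 0.30, adjusted p = 0.00077). Ifit3, which holds back viral RNA, was 3.66-fold lower, and the immunoproteasome subunits Psmb8 and Psmb9 were 1.53-fold and 1.64-fold lower. Without wild type 3 and early 1, 6 genes fell, and without wild type 5 as well, 4. In a fit over both groups alone, 19 fell. Of 37 inflammatory chemokine and cytokine genes 7 fell and 1 rose (median -0.34), beside 8.55% of all genes called lower and 7.35% higher. Cxcl9, which draws T cells, read 6.07, 6.31 and 5.65 against 8.18, 8.19, 8.58, 7.86 and 7.83 (4.34-fold lower), Il18, a cytokine released by inflammasomes, was 3.83-fold lower and Icam1, the adhesion ligand of leukocytes, 2.36-fold lower. The rise was Ccl9, a myeloid chemokine, at 10.22, 10.44 and 11.52 against 9.59, 8.81, 8.52, 8.50 and 9.03 (3.57-fold higher). Il6, the cytokine interleukin 6, read 4.002, 3.87 and 3.76 in early spleens and 6.13, 3.77, 4.47, 4.05 and 5.98 in wild-type spleens and did not pass (-1.0 ± 0.50, adjusted p = 0.21), with wild type 1 and 5 above all other arrays. Psmb8 did not pass without wild type 3, wild type 5 and early 1 (adjusted p = 0.058).

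**Figure D3:**
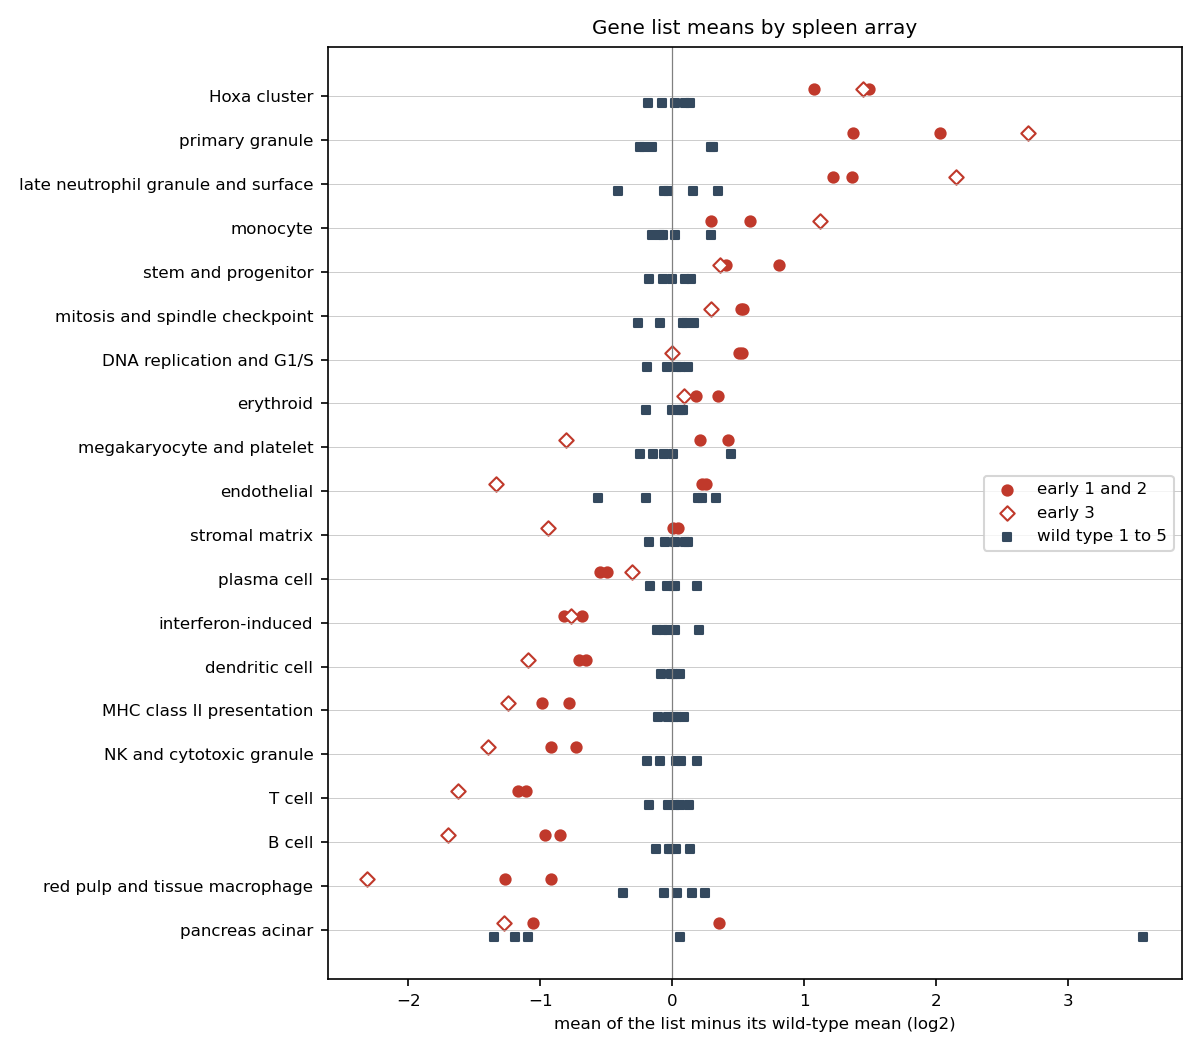
Mean of each gene list minus its wild-type mean (log2, x axis) for 20 lists (rows) in early 1 and 2 (filled red circles), early 3 (open red diamonds) and wild type 1 to 5 (dark blue squares). The primary granule list lies at 2.03, 1.37 and 2.70 in early spleens, the T cell list at -1.17, -1.11 and -1.62, and the pancreas list is highest in wild type 3, at 3.57.

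Some cell cycle genes rose, by small amounts. Of 36 mitosis and spindle checkpoint genes 16 rose (median 0.42), and of 32 DNA replication and G1/S genes 6 rose (median 0.32). The share of all genes called higher was 7.35%. Cenpe, a kinetochore motor, read 9.38, 9.48 and 8.86 in early spleens and 8.28, 8.15, 8.05, 8.07 and 7.72 in wild-type spleens and was 2.27-fold higher (1.18 ± 0.20, adjusted p = 0.0012). Kif2c, a microtubule depolymerase, and the checkpoint kinases Bub1 and Bub1b were 1.67-fold, 1.6-fold and 1.81-fold higher. Cdc45, which opens replication forks, read 8.52, 8.56 and 8.46 against 7.63, 7.64, 7.53, 7.61 and 7.05 (2.03-fold higher), with wild type 5 lowest. Pole, a replicative polymerase, was 1.56-fold higher, and the replication factors Mcm5 and Mcm10 1.64-fold and 1.55-fold. E2f1, a factor that starts replication genes, was 1.76-fold higher and Gins1, a fork component, 1.42-fold. Mki67, the proliferation antigen, read 13.38, 13.52 and 12.85 against 12.91, 13.02, 12.98, 13.05 and 12.78 and did not pass (0.30 ± 0.14, adjusted p = 0.16), with early 3 above wild type 5 only. The replication count was 2 without early 1, 2 without early 2 and 14 without early 3. The mitosis count was 10 without early 2, 7 without wild type 3 and early 1, and 2 without these and wild type 5. Early 3 had the lowest list mean of the early arrays in both, at 0.29 for mitosis and -0.01 for replication. Some calls here were lost without early 1 or 2 for Mcm10 and Mcm5 and without any 1 of several arrays of both groups for E2f1 and Gins1 (adjusted p up to 0.13, E2f1). E2f1, Gins1, Mcm10 and Mcm5 did not pass without wild type 3 and early 1, nor did Bub1b and Cenpe without wild type 5 as well (adjusted p up to 0.36 without all 3 arrays, Gins1).

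DNA damage response genes, part of what the study describes for this stage, rose in 7 of 30 and fell in 2 (median 0.26). The shares over all genes were 7.35% higher and 8.55% lower. Cdc25a, the phosphatase that the checkpoint kinases restrain, read 10.35, 10.08 and 10.41 in early spleens and 9.44, 9.36, 9.25, 9.08 and 9.22 in wild-type spleens and was 2.01-fold higher. Rad54l, a homologous recombination factor, was 1.7-fold higher and Timeless, which steadies replication forks, 1.52-fold higher. Atm, the kinase that senses double-strand breaks, read 7.76, 7.84 and 7.34 against 8.58, 8.64, 8.64, 8.95 and 8.80 and was 2.11-fold lower (-1.08 ± 0.17, adjusted p = 0.00074). Xrcc5, the large Ku subunit of end joining, was 1.57-fold lower. Chek1, a checkpoint kinase, did not pass (0.28 ± 0.13, adjusted p = 0.19). Without early 1, 3 genes rose, without early 2, 4, and without wild type 3, wild type 5 and early 1, 1. Over all 12394 genes, 611, 801 and 306 rose in those fits. Transcript levels do not measure checkpoint activity, which rests on phosphorylation. In leave-one-out fits, calls were lost without early 1 or 2 for Timeless and without any 1 of several arrays of both groups for Xrcc5 (adjusted p up to 0.12, Xrcc5). Timeless and Xrcc5 did not pass without wild type 3 and early 1, nor did Rad54l without wild type 5 as well (adjusted p up to 0.2 without all 3 arrays, Xrcc5).

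Of 27 p53 target genes 3 rose and 10 fell (median -0.07), beside 7.35% of all genes called higher and 8.55% lower. The rises were Dram1, an autophagy gene (9.34, 8.96 and 9.62 in early spleens and 8.24, 7.23, 7.39, 7.58 and 7.37 in wild-type spleens, 3.36-fold higher), Xpc, which recognises DNA lesions (2.94-fold higher), and Apaf1, the scaffold of the apoptosome (1.9-fold higher). Ddit4, an inhibitor of mTOR, was 2.52-fold lower. Cdkn1a, which encodes p21, read 7.60, 7.76 and 8.02 against 7.88, 7.15, 7.05, 7.18 and 7.23 and did not pass (0.50 ± 0.28, adjusted p = 0.26), with wild type 1 inside the early range. The falls numbered 4 without early 1, 5 without wild type 2, 3 or 4, and 1 without wild type 3 and early 1. The 3 rises passed in each of those fits. Of 20 senescence and kinase inhibitor genes 2 rose and 4 fell, beside 7.35% of all genes called higher and 8.55% lower. The Polycomb genes Bmi1 and Cbx7, which silence the Cdkn2a locus, fell by 0.80 ± 0.12 and 0.98 ± 0.16. Their second, dimmer probe sets differed by -0.93 ± 0.19 and -0.18 ± 0.15. Cdkn2c, an inhibitor of Cdk4 and Cdk6, was 1.48-fold higher and Ezh2, a Polycomb methyltransferase, 1.32-fold higher. Igfbp3, a secreted binder of insulin-like growth factors, fell by 1.14 ± 0.27 and Bhlhe40, a stress-responsive repressor, by 0.93 ± 0.29. Cdkn2a itself did not pass (-0.81 ± 0.45, adjusted p = 0.26), with early values of 5.62, 4.65 and 4.21 and wild-type values of 5.77, 5.35, 6.10, 5.64 and 5.32. Calls were lost without early 1 for Cdkn2c, without early 3 for Igfbp3 and without any 1 of several arrays of both groups for Bhlhe40 and Ezh2 (adjusted p up to 0.13, Ezh2). Bhlhe40, Cdkn2c and Ezh2 did not pass without wild type 3 and early 1 (adjusted p up to 0.31 without all 3 arrays, Ezh2).

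Of 21 erythroid genes 2 rose, beside 7.35% of all genes called higher, 19 did not pass and the median was 0.23. Sptb, the spectrin chain of the red cell skeleton, was 1.55-fold higher, and Nfe2, a factor of red cells and megakaryocytes, read 12.13, 12.11 and 12.05 in early spleens and 11.67, 11.58, 11.67, 11.61 and 11.34 in wild-type spleens (1.44-fold higher). Among 11 haem synthesis genes only Alas1 rose. Alas1, the housekeeping form of the enzyme that opens haem synthesis, read 10.45, 9.79 and 11.09 against 8.69, 8.26, 7.98, 8.25 and 7.98 and was 4.64-fold higher (2.21 ± 0.27, adjusted p = 0.00016). Of 18 megakaryocyte and platelet genes 1 rose (Nbeal2, needed for alpha granules, 1.84-fold) and 1 fell (P2ry12, the ADP receptor of platelets and some macrophages, -1.49 ± 0.36, adjusted p = 0.012). Of all genes, 8.55% were called lower. Of 7 lipid and iron receptors of red cell turnover, Scarb1 rose (1.34-fold). Passing calls were lost without early 2 for Sptb and without any 1 of several arrays of both groups for Scarb1 (adjusted p up to 0.1, Scarb1). Nbeal2, Scarb1 and Sptb did not pass without wild type 3 and early 1, nor did Nfe2 and P2ry12 without wild type 5 as well (adjusted p up to 0.29 without all 3 arrays, Scarb1).

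Arachidonic acid enzymes changed in both directions, with 3 of 15 higher and 2 lower. Lta4h, which makes a neutrophil-attracting leukotriene, read 12.08, 11.59 and 12.82 in early spleens and 10.01, 10.56, 10.32, 10.40 and 10.33 in wild-type spleens (3.58-fold higher), and Alox5ap, the partner of the leukotriene-forming lipoxygenase, was 3.18-fold higher. Ptges2, a prostaglandin E synthase, was 1.37-fold higher. Ptgis, prostacyclin synthase, read 7.48, 8.05 and 5.99 against 9.43, 9.02, 10.07, 9.61 and 9.94 and was 5.43-fold lower (-2.44 ± 0.44, adjusted p = 0.0018). Hpgds, prostaglandin D synthase of mast cells and others, fell by 1.05 ± 0.28. Of 28 immediate early genes 3 rose and 3 fell, beside 7.35% of all genes called higher and 8.55% lower. Egr2, a zinc finger factor, Dusp2, a phosphatase of MAP kinases, and Ier5, induced by growth factors, fell by 1.72, 1.62 and 1.21, while the Fos family genes Fosl2 and Fosl1 rose by 0.68 ± 0.15 and 0.41 ± 0.12, and Klf4 rose as given above. Some calls here were lost without early 3 for Hpgds and without any 1 of several arrays of both groups for Fosl1 and Ptges2 (adjusted p up to 0.093, Ptges2). Hpgds and Ptges2 did not pass without wild type 3 and early 1, nor did Fosl1 and Fosl2 without wild type 5 as well (adjusted p up to 0.22 without all 3 arrays, Ptges2).

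Among genes of supporting tissue, early 3 stood apart. Of 29 stromal matrix genes 2 rose and 2 fell, and of 22 endothelial genes 1 fell, beside 7.35% of all genes called higher and 8.55% lower. The stromal falls numbered 4 without early 2, 3 without early 1 or wild type 5 and 1 without wild type 1, 2 or 4. Igfbp4, a secreted binder of insulin-like growth factors, read 11.21, 11.08 and 10.69 in early spleens and 9.89, 9.83, 9.94, 9.94 and 9.58 in wild-type spleens (2.23-fold higher). Col5a1, a fibrillar collagen, was 1.59-fold higher and Tagln, a smooth muscle gene, fell by 0.71 ± 0.19. Sparc, a matrix protein, read 9.02, 8.75 and 5.96 against 9.82, 9.73, 8.88, 9.96 and 10.02, where early 1 overlapped wild type 3 and early 3 lay far below all others. Pecam1, the endothelial adhesion molecule CD31, read 7.63, 7.58 and 6.51 against 8.24, 8.02, 7.92, 8.40 and 8.35. In leave-one-out fits, calls were lost without early 3 for Pecam1 and Tagln and without any 1 of several arrays of both groups for Col5a1 and Sparc (adjusted p up to 0.2, Col5a1). Col5a1 did not pass without wild type 3 and early 1, nor did Pecam1 and Sparc without wild type 5 as well (adjusted p up to 0.48 without all 3 arrays, Col5a1).

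Of 19 cytosolic ribosomal protein genes 2 fell (Rpl11, 1.32-fold, and Rps19, 1.24-fold). Of 29 respiratory chain genes 2 rose (Uqcrc1, 1.33-fold, and Ndufb3, 1.31-fold). Both shares were near those of all genes, of which 8.55% were called lower and 7.35% higher. Of 7 housekeeping and control genes 3 changed, beside 15.9% of all genes: Gapdh, a glycolytic enzyme, and Gusb, a lysosomal one, were 1.49-fold and 1.61-fold higher, and B2m, the light chain of MHC class I, 1.59-fold lower. Of 24 adipocyte and muscle genes 1 rose and 3 fell, beside 7.35% of all genes called higher and 8.55% lower. The rise was Myh4, a fast muscle myosin, near background in both groups (0.41 ± 0.13, adjusted p = 0.042). Fabp4, Lpl and Scd1, lipid genes that macrophages also use, fell 2.82-fold, 1.93-fold and 3.01-fold. Without early 3, 4 members rose and these falls did not pass. Without wild type 3 their adjusted p was 0.051, 0.097 and 0.056. Calls were lost without early 1 for Uqcrc1, without early 2 for Rpl11, without early 3 for Gusb and Ndufb3, without early 3 or wild type 3 for Fabp4 and without any 1 of several arrays of both groups for Lpl, Myh4, Rps19 and Scd1 (adjusted p up to 0.23, Myh4). Fabp4, Lpl, Myh4, Ndufb3, Rpl11, Rps19, Scd1 and Uqcrc1 did not pass without wild type 3 and early 1, nor did B2m, Gapdh and Gusb without wild type 5 as well (adjusted p up to 0.43 without all 3 arrays, Myh4).

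Several of the largest rises lay outside the lists. Chdh, a mitochondrial choline dehydrogenase, read 9.09, 8.02 and 9.08 in early spleens and 5.75, 5.75, 5.09, 5.34 and 5.87 in wild-type spleens (3.17 ± 0.23, adjusted p = 1.5e-05), a gap of more than 2 log2 units between the groups. Lin28a, which blocks let-7 microRNA maturation, read 7.41, 6.92 and 8.39 against 5.12, 4.52, 4.14, 4.38 and 4.08 (3.12 ± 0.48, adjusted p = 0.00061). Ncam1, a neural cell adhesion molecule, read 9.35, 8.80 and 10.09 against 6.83, 6.46, 5.73, 6.35 and 6.08 and was 8.69-fold higher. A second bright Ncam1 probe set differed by 3.30 ± 0.40 and 4 dimmer sets by 1.45 ± 0.24, 0.44 ± 0.12, 0.09 ± 0.10 and -0.16 ± 0.13. Adgrg3, an adhesion receptor of granulocytes, was 8.43-fold higher and Itgb2l, an integrin chain of neutrophils, 8.15-fold higher. Fbp1, a gluconeogenic phosphatase, rose by 3.06 ± 0.47. Myl10, a myosin light chain, read 9.86, 6.56 and 9.14 in early spleens, where early 2 lay more than 2 log2 units below the others, and 6.17, 5.18, 4.95, 5.45 and 5.63 in wild-type spleens (3.04 ± 0.68, adjusted p = 0.0076). The call was lost without early 1 for Myl10 (adjusted p = 0.051). Myl10 did not pass without wild type 3 and early 1 (adjusted p = 0.17 without wild type 5 as well).

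Among the largest falls outside the lists, Cxcr6, a chemokine receptor of T and natural killer T cells, read 6.07, 6.35 and 5.61 in early spleens and 8.22, 8.24, 8.32, 8.31 and 8.84 in wild-type spleens and was 5.2-fold lower (-2.38 ± 0.20, adjusted p = 2.9e-05). Sh2d1a, the signalling adaptor SAP of T cells, read 6.28, 5.22 and 4.85 against 7.59, 8.66, 8.37, 8.06 and 7.82 (-2.65 ± 0.49, adjusted p = 0.0022). Adamdec1, a protease of macrophages and dendritic cells, was 5.93-fold lower, and Gbp8, a further guanylate-binding protein, 5.09-fold lower. Crisp3, a secreted cysteine-rich protein, read 3.97, 4.31 and 3.17 against 4.38, 6.44, 6.52, 6.001 and 7.30, so that wild type 1 nearly met early 2. Adamdec1 and Crisp3 did not pass without wild type 3, wild type 5 and early 1 (adjusted p up to 0.067 without all 3 arrays, Crisp3).

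The early stage was set against the next stage in the same fit. Between early and progression spleens, limma called 0 of 12394 genes (0%), with 910 at an unadjusted p under 0.05. With array weights 328 passed, and without progression 3, 382, so a count of 0 does not show that the stages are alike. Hoxa9 differed by -0.48 ± 0.46 (early minus progression), Elane by 0.09 ± 0.44 and Mki67 by 0.04 ± 0.15.

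Between early and terminal spleens 819 genes (6.61%) differed, 481 (3.88%) higher and 338 (2.73%) lower in early spleen; after a further quantile normalization the split was 525 higher and 225 lower. The split turned round among genes above the median level (453 higher, 542 lower), with array weights (1565 higher, 1906 lower) and without early 3 (1009 higher, 1148 lower). All 3 terminal arrays had high Xist and low Eif2s3y, as early 1 did, while early 2 and 3 had the opposite. With Xist as covariate 350 were higher and 90 lower, and in a fit over early and terminal arrays alone 222 and 29. Most red cell genes were higher in early than in terminal spleens. Of 21 erythroid genes 18 were higher in early spleens (median 1.71), and of 11 haem synthesis genes 9. Tmod1, which caps actin in the red cell skeleton, read 9.86, 9.75 and 10.66 in early, 6.53, 6.91 and 6.82 in terminal and 9.60, 10.17, 10.19, 9.99 and 9.90 in wild-type spleens (early minus terminal 3.34 ± 0.23, adjusted p = 6.7e-07). Early 1 and 2 lay within the wild-type range and early 3 above it, with all terminal spleens below it. Cd36, a scavenger receptor, differed by 3.27 ± 0.30, Fn3k, which repairs glycated proteins, by 3.62 ± 0.25 and Tspan8, a tetraspanin, by 3.80 ± 0.92. Cr2, the complement receptor of B and follicular dendritic cells, read 9.74, 10.25 and 8.01 in early, 6.99, 7.91 and 9.42 in progression, 5.85, 4.37 and 5.19 in terminal and 11.09, 11.02, 11.09, 11.19 and 11.33 in wild-type spleens. Cr2 was thus 3.51-fold lower in early than in wild-type spleens (-1.81 ± 0.52, adjusted p = 0.03) and 4.197 ± 0.58 higher than in terminal spleens. Of 32 B cell genes 8 were higher in early than in terminal spleens, and of 36 mitosis genes 5. Mki67 was 0.76 ± 0.15 higher on the log2 scale (adjusted p = 0.009). Against wild type, Cr2 did not pass without wild type 3 and early 1 (adjusted p = 0.17 without wild type 5 as well).

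Lower in early than in terminal spleens were Grb14, an adaptor of the insulin receptor (4.54, 4.49 and 4.97 in early and 6.42, 7.33 and 6.87 in terminal spleens, -2.21 ± 0.23), Podxl, the sialomucin podocalyxin (-2.22 ± 0.55), Klra17, a lectin-like receptor (-2.12 ± 0.35), Cxcr2, the chemokine receptor of mature neutrophils (-1.67 ± 0.35), and Apoc2, an apolipoprotein (-1.40 ± 0.37). Hoxa9 and Elane did not pass this test (0.32 ± 0.46 and -0.44 ± 0.44). The count depended on single arrays: 314 without early 2 and 2157 without early 3. It was 305 without wild type 3 and early 1. Without early 1 (374 genes) the calls of Tspan8, Mki67, Podxl, Cxcr2 and Apoc2 were lost, with adjusted p of 0.065, 0.051, 0.086, 0.067 and 0.15, and the fall of Cr2 against wild type was lost without early 3 (-1.15, adjusted p = 0.13) and without any 1 of 5 other arrays of both groups.

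**Figure D4:**
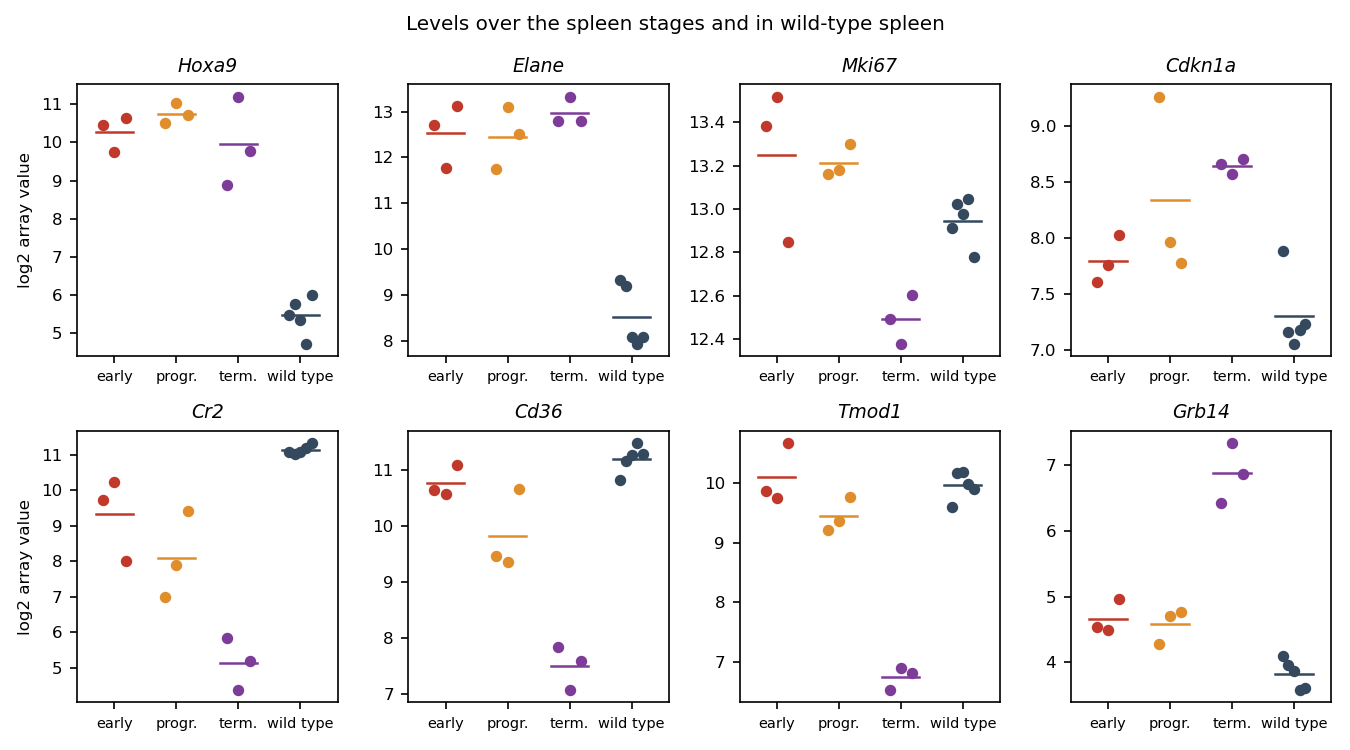
Log2 array values of 8 genes in early, progression and terminal spleens (3 arrays each) and wild-type spleens (5 arrays), with group means as lines. Hoxa9 and Elane are high in all 3 disease stages, whereas Cd36 and Tmod1 have their lowest group mean in the terminal stage, as does Cr2.

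The change in spleen was last set against the change in bone marrow, as the difference of both differences over all 29 arrays. Both MLL-ENL-ERtm groups had 7 months of tamoxifen, but their controls were not matched in months. All wild-type spleen mice were treated for more than 7 months, and most wild-type marrow mice for 7. Months were not a covariate in this comparison, so the part of this mismatch in the differences between organs was not tested. Marrow arrays had higher medians than spleen arrays and may have been normalized apart from them, so only differences within an organ were used. The test passed for 869 genes (7.01%), 304 (2.45%) with the higher and 565 (4.56%) with the lower spleen difference. Granule genes were among the largest differences between the organs. Elane differed from wild type by 4.005 ± 0.40 in spleen and by -0.04 ± 0.37 in marrow (difference 4.04 ± 0.53, adjusted p = 5.9e-05). Prtn3, Ms4a3 and Hoxa9 had differences of 3.87 ± 0.41, 3.97 ± 0.55 and 2.59 ± 0.47, and Hoxa9 itself was 2.22 ± 0.32 higher in marrow. Of 23 late neutrophil genes 17 and of 13 primary granule genes 6 had the higher spleen difference. Dmkn, which encodes dermokine, rose by 2.95 ± 0.44 in spleen and differed by -1.004 ± 0.40 in marrow. Vpreb1, part of the precursor B cell receptor, did not pass in spleen (0.54 ± 0.40) and differed by -3.32 ± 0.43 in marrow. Esr1 and Hoxa10 had marrow differences of 2.34 ± 0.20 and 2.86 ± 0.35, and their differences between the organs did not pass (-0.02 ± 0.29 and -0.24 ± 0.50).

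The lower spleen differences included macrophage and mast cell genes. Adgre4, a macrophage receptor related to Adgre1, differed from wild type by -2.11 ± 0.36 in spleen and 1.22 ± 0.30 in marrow (difference -3.33 ± 0.43), and Adamdec1 by -2.57 ± 0.51 and 0.86 ± 0.41 (difference -3.43 ± 0.59). Mcpt4 and Cpa3 had differences between the organs of -3.01 ± 0.75 and -2.93 ± 0.86, and Cpa3 lost its call without any 1 of several arrays of all 4 groups (adjusted p up to 0.094 without early 3). Hpgd, which breaks down prostaglandins, did not pass in spleen (-0.58 ± 0.63) and differed by 2.15 ± 0.50 in marrow. The count of 869 was 276 without wild type 3 and 5 and early 1, and array weights turned the split round, to 2137 with the higher and 2017 with the lower spleen difference.

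**Figure D5:**
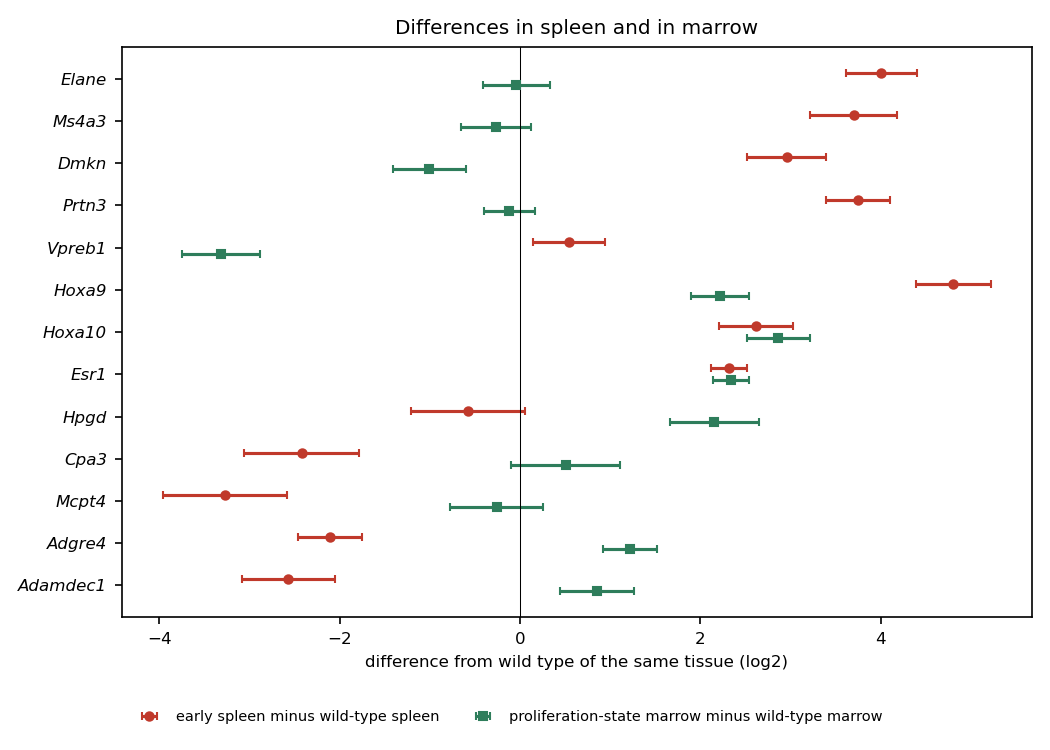
Difference from wild type of the same organ (log2, x axis) for 13 genes (rows), in early spleen (red circles) and in proliferation-state marrow (green squares), with standard errors as bars. Elane, Ms4a3 and Prtn3 lie near 4 in spleen and near 0 in marrow, while Esr1 and Hoxa10 lie close together in both organs.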

How the data were processed

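Values were the deposited log2 expression values of 29 Affymetrix mouse arrays, 1 per sample. Per the submitters' processing notes the authors used RMA with affy and limma; versions and a genome build are not given in the sources used here, nor are slide or scan dates. The platform annotation gave 1 gene symbol to 20393 of 22690 probe sets and several to 691, and it lacked 1606. Each gene was read from its brightest single-symbol probe set over the 14 spleen arrays, which gave 12394 genes; all were tested. The number of arrays limits the precision, and no 2 arrays held identical values.

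The spleen comparisons came from 1 limma fit (3.58.1, R 4.3.3) over 14 spleen arrays in 4 groups, with empirical Bayes moderation and Benjamini-Hochberg adjustment over all genes at 0.05. The comparison with marrow came from a fit over 29 arrays in 8 groups. Tests were two-sided. The labels call the arrays biological replicates. The fit was tested on simulated data.

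The genes named were the 14 largest rises and 14 largest falls past the threshold, up to 4 members with the smallest p past it on each of 37 lists (up to 2 where none passed), a set named in every case (Kmt2a, Mllt1, Esr1, Hoxa5, Hoxa7, Hoxa9, Hoxa10, Meis1, Pbx3, Mki67, Cdkn1a, Cdkn2a, Chek1, Il6), and up to 5 in each direction in the other comparisons. Placeholder symbols, antigen receptor segments, sex-linked, pancreas and adipocyte genes were left out of the largest changes. Further members were named after their values were seen, where a list had few changes or to check the organ: Hoxa3, Ms4a1, Cd79a, Cd3e, Spic, Hmox1, Vcam1, Ltf, Camp, Ngp, S100a8, S100a9, Jchain, Gfi1, Mef2c, Tgm2, Kit, Cd27, Procr, Ccr2, Klf4, Csf1r, Fcgr1, Tcf4, Rfx5, Hdc, Il4, Rag2, Xrcc5, Ezh2, Bhlhe40, Ccl9, Cxcr4, Fosl1, Ptges2, E2f1 and Gins1. The members and lists were chosen with earlier results of these data known.

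Alternatives were a second quantile normalization, centring, a filter on dim genes, the mean of all probe sets, only the groups compared, a moderation with trend and robust settings, array weights, the replicate block, covariates (Xist, pancreas list, months of tamoxifen), and arrays left out; those chosen after seeing the data were the Gapdh 3'/5' difference and the narrow spread of some arrays as covariates and both splits by that spread. Promoters came from RefSeq on GRCm38.p6. Plots were drawn with matplotlib 3.10.9 in Python 3.11.15.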

Additional observations from a re-analysis of the deposited data

Results flagged for a closer look

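In 14 of 180 named genes and 2 of 36 lists, 1 wild-type array lay far from the other 4 (Dixon's test, critical value 0.71). About 1 in 20 such groups is picked out by chance. Groups of 3 arrays, the early spleens among them, were not tested. All values are log2. Wild type 1 stood apart for Cdkn1a (7.88, nearest 7.23), Icam1 (9.40, nearest 9.01), Klrd1 (9.45, nearest 10.28), Tcf4 (9.77, nearest 9.96) and Bhlhe40 (9.71, nearest 9.08). Wild type 2 stood apart for Csf1r (12.28, nearest 12.67). Wild type 3 stood apart for Gp2 (9.69, nearest 6.79), H2-Oa (10.63, nearest 10.82), Hoxa5 (5.20, nearest 5.87) and Sparc (8.88, nearest 9.73), and for the mean of the pancreas acinar list (3.57 relative to the wild-type mean, nearest 0.06). Wild type 5 stood apart for Bub1b (8.08, nearest 8.54), Cdc45 (7.05, nearest 7.53), Cxcr6 (8.84, nearest 8.32) and Nfe2 (11.34, nearest 11.58), and for the mean of the haem synthesis list (-0.23, nearest 0.02).

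For 11 genes the early spleen change and the proliferation marrow change differed in the test of that difference (limma over 29 arrays). The spleen difference minus the marrow difference was -3.43 ± 0.59 for Adamdec1, -3.33 ± 0.43 for Adgre4, -2.93 ± 0.86 for Cpa3, 3.96 ± 0.58 for Dmkn, 4.04 ± 0.53 for Elane, 2.59 ± 0.47 for Hoxa9, -2.73 ± 0.71 for Hpgd, -3.01 ± 0.75 for Mcpt4, 3.97 ± 0.55 for Ms4a3, 3.87 ± 0.41 for Prtn3 and 3.86 ± 0.62 for Vpreb1 (log2 ± standard error).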

How the results depend on the processing

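The count of 1971 genes against wild type was 5699 with array weights. It was 1011 without wild type 3 and early 1, and 643 without these and wild type 5. With only the 5 narrow spleen arrays it was 18. That fit held early 1 and 2, progression 1 and 2 and wild type 1, so its control group was 1 array. With 1 array left out the count was 1343 to 2142. The cause of these shifts was not tested. Fits with arrays left out also held fewer arrays. Settings other than array weights, arrays left out, both splits by array spread and the replicate block gave 1574 to 2316. The lowest, 1574, came from the filter on dim genes. That filter tested only 6197 genes and kept all 1367 of the calls among them. Of 169 called genes named, 96 kept the call under every setting apart from both splits by array spread, and all 169 kept their sign within both. Cdkn1a was -0.20 with only narrow arrays and Mki67 -0.11 with only wide arrays. Against progression, weights gave 328 genes and leave-one-out 0 to 382. Against terminal spleen (819), only the groups compared gave 251, weights 3471, Xist as covariate 440, Gapdh 3'/5' as covariate 419, both pancreas settings 305 and 250, and leave-one-out 314 to 2157. For spleen against marrow (869), only the groups compared gave 1357, weights 4154, both pancreas settings 479 and 276, and leave-one-out 617 to 965. Hoxa9 against terminal spleen was -0.21 to 0.94 with 1 array left out. Esr1, spleen against marrow, was 0.0021 after centring, 0.45 with weights, 0.076 with the Xist covariate and -0.22 to 0.18 with 1 array left out.

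Whether replicate numbers pair the arrays was not settled. Deviations of same-numbered early and wild-type arrays correlated at 0.19, -0.14 and 0.0071, with no differently numbered pairs for reference. With the replicate block, 825 genes passed against wild type, 352 against terminal spleen and 575 in the comparison with marrow, and the Esr1 difference between organs was 0.076. Signal near background limits Hoxa10, Esr1 and other dim genes, whose folds are not given. The 3 early arrays limit all of these comparisons.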

Other observations

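Probe sets without a single gene symbol were not part of the comparison by gene. Each kind was fitted apart with limma over the spleen arrays, with its own adjustment. Of 691 probe sets with several symbols, 36 were higher and 79 lower in early than in wild-type spleen. Of 1606 probe sets not listed in the annotation, 53 were higher and 68 lower.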
